A study of Mus musculus with 47 samples.

Results

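The release of neurotransmitter from a nerve terminal rests on a common set of proteins, and the genes of 34 of them are described here in the cerebral cortex of mice that model Huntington's disease. The 34 genes were listed by name, from vesicle proteins to the endocytic proteins that retrieve vesicle membrane, and all 34 were found among the 48795 genes of the deposited tables. The cortex was taken at 6 months of age from 47 mice on a C57BL background, and total RNA was extracted and sequenced with a stranded library kit. Mice were Q140 x Ccdc82-/- (n = 7), Q140 x Ccdc82+/- (n = 8), Q140 (n = 8), Ccdc82-/- (n = 8), Ccdc82+/- (n = 8) and wild type (WT, n = 8), with 3 females and 4 males in the first group and 4 of each sex in the others. Q140 mice are heterozygous for a knock-in of an expanded CAG repeat into Htt, the Huntington's disease gene, so they keep a normal Htt copy. Ccdc82-/- and Ccdc82+/- mice lack both copies or a single copy of Ccdc82; the labels name neither the deleted part nor any restriction to a tissue. The crosses bear on whether the Q140 allele, the loss of Ccdc82, or their combination alters expression in cortex.

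Synaptic vesicles are docked at the active zone, a protein scaffold built by RIM, Bassoon, Piccolo and ELKS proteins, and are made ready for fusion by Munc13. Fusion is driven by the SNARE proteins, a vesicle synaptobrevin (VAMP) and the membrane proteins syntaxin and SNAP-25, which complexin holds ready until calcium binds a synaptotagmin. NSF and its SNAP adaptors then take the SNARE complex apart, and dynamin, amphiphysin, endophilin and synaptojanin retrieve the membrane. In cortex, excitatory cells rely mainly on synaptotagmin 1 and synaptobrevin 2, whereas fast-spiking parvalbumin interneurons are known for synaptotagmin 2 and also carry synaptobrevin 1.

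Promoters are shown for the members on which the results below turn: Vamp1, which had the smallest p of the 34 for the Q140 allele, Unc13a, which had the smallest p for Q140 against WT, and Rims1 and Syp, which differed between the sexes. The windows are from RefSeq on GRCm38.p6, run 5′ to 3′ along the gene and hold 250 bases before and 50 bases after the start site. Capitals mark the GC box GGGCGG in Vamp1, Rims1 and Syp, and the left (TTCAGCACC) and right (GGACAGNGC) arms of the RE1 element, which the repressor REST binds, in Unc13a, where both arms stand on the opposite strand. The Unc13a window also holds the GC box on the opposite strand, which is left in lower case.
Vamp1 (chr6:125215331-125215630, plus strand): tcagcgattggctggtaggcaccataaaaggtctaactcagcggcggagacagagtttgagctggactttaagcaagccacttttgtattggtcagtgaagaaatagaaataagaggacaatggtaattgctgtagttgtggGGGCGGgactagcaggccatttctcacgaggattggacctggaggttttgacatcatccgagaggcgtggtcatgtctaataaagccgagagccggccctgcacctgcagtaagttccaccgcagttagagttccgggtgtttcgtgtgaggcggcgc
Unc13a (chr8:71671708-71672007, minus strand): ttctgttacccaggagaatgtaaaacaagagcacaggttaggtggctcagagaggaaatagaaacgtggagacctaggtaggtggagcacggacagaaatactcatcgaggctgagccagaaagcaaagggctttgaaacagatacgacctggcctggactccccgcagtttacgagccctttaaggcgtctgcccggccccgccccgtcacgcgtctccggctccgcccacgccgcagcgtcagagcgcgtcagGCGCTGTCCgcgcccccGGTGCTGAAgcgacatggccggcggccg
Rims1 (chr1:22806109-22806408, minus strand): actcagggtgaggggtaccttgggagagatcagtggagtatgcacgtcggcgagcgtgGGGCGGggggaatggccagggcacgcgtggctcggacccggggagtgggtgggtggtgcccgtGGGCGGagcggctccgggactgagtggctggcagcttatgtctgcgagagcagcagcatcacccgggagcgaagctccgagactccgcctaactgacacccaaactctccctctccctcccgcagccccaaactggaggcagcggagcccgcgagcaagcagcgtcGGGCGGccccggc
Syp (chrX:7638330-7638629, plus strand): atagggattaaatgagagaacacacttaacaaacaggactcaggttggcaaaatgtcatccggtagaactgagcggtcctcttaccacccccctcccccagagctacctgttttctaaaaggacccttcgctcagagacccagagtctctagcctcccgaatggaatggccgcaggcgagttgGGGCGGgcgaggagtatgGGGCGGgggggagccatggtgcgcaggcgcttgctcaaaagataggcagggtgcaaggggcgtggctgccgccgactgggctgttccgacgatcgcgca
Of the 34 members, 28 had a RefSeq window, 38 windows in all. The RE1 left arm occurred on either strand in 2 of the 38 member windows, of Syn1 and Unc13a, and in 0.371% of all 32851 windows. The right arm occurred in 2 of the 38, of Sv2b and Unc13a, and in 1.91% of all windows. In Unc13a the arms began 6 and 23 bases after the start site. The GC box, searched on both strands, stood in 23 of the 38 member windows and in 35.7% of all windows. These motifs were among 10 that were searched, which overlap in part, and they were picked for printing after the matches had been seen. The other 7 are given by the count among the 38 member windows and the share of all windows. They were the cyclic AMP response element TGACGTCA (3 and 1.79%) and its forms TGACGTNA (4 and 2.93%) and TGACGTC (4 and 3.21%). The rest were the palindromic NRF1 motif (1 and 0.971%), its form with a free base (5 and 4.6%), the E-box CAGCTG (10 and 16.3%) and the TATA motif TATAAA (2 and 13.6%). A match describes the letters and does not show that a factor binds.

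The libraries held 43554594 to 61370843 counts, with a median of 50473683, and 19174 genes, all 34 members among them, passed the filter on low counts. Ccdc82 averaged 5.51 ± 0.426 CPM (counts scaled to library size; SD, n = 7) in Q140 x Ccdc82-/- mice and 5.32 ± 0.595 CPM (n = 8) in Ccdc82-/- mice, against 16.2 ± 1.58 CPM (n = 8) in WT mice, in the order that the labels imply. Markers were set beside the tissue label: Slc17a7, the vesicular glutamate transporter of cortical excitatory neurons, averaged 225 FPKM (counts scaled to library size and gene length), whereas striatal Drd2 averaged 0.295 FPKM and hippocampal Dsp 0.023 FPKM. The median correlation of a library with the others of its genotype was at least 0.991.

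The release genes were abundant, and together they took 2.27 ± 0.05% of all counts (SD, n = 47), with 2.13% in the lowest mouse and 2.40% in the highest. By group this share was 2.26 ± 0.05% in Q140 x Ccdc82-/-, 2.25 ± 0.06% in Q140 x Ccdc82+/-, 2.26 ± 0.04% in Q140, 2.29 ± 0.05% in Ccdc82-/-, 2.30 ± 0.03% in Ccdc82+/- and 2.25 ± 0.06% in WT mice. The ranges of all 6 groups overlapped. On the FPKM scale, which allows genes of different length to be set side by side, levels of the members spanned 1.97 FPKM for Doc2b to 508 FPKM for Snap25.

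**Figure D1:**
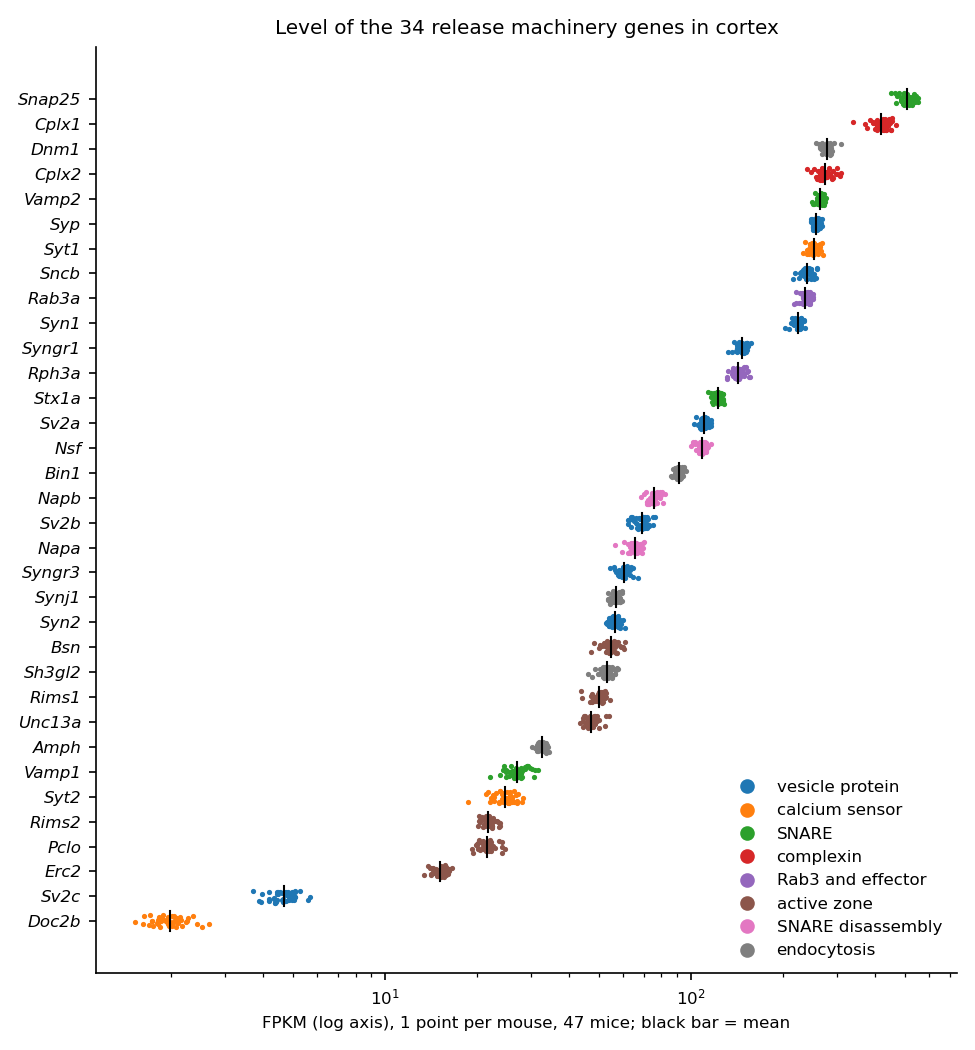
Level of each of the 34 genes in FPKM on a log axis, with a point for each of 47 mice, colours for the role of the gene and a black bar for the mean. Snap25 at 508 FPKM and Cplx1 at 419 FPKM lead, and Sv2c at 4.66 FPKM and Doc2b at 1.97 FPKM stand lowest.

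Among the 9 vesicle proteins, Syp, which encodes the membrane protein synaptophysin, ranged over the 47 mice from 246 to 268 FPKM with a median of 258. Sv2c, the rarest of the SV2 glycoproteins in cortex, ranged from 3.70 to 5.68 FPKM with a median of 4.69. Sv2c thus made up 2.54 ± 0.25% of the summed FPKM of the 3 SV2 genes, and Syn2 made up 20.2 ± 0.66% of the sum of Syn1 and Syn2, which encode synapsins that tether vesicles (SD, n = 47).

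Among the calcium sensors, Syt1, encoding the synaptotagmin of fast release in most forebrain neurons, ranged from 233 to 270 FPKM with a median of 252. Doc2b, which encodes a high-affinity sensor linked to spontaneous release, ranged from 1.52 to 2.65 FPKM with a median of 1.94. Syt2, encoding synaptotagmin 2, ranged from 18.7 to 28.1 FPKM with a median of 24.6 and contributed 8.89 ± 0.61% of the summed FPKM of Syt1 and Syt2.

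Among the SNAREs, Snap25 ranged from 452 to 552 FPKM with a median of 507. Vamp1, encoding synaptobrevin 1, ranged from 21.98 to 31.6 FPKM with a median of 26.9, and gave 9.29 ± 0.64% of the summed FPKM of Vamp1 and Vamp2. Of the complexins, Cplx1 ranged from 338 to 467 FPKM with a median of 421 and Cplx2 from 239 to 310 FPKM with a median of 272, so that Cplx1 gave 60.4 ± 1.45% of their sum.

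Rab3a, the small GTPase of synaptic vesicles, ranged from 217 to 250 FPKM with a median of 236, and its effector gene Rph3a, encoding rabphilin, from 131 to 156 FPKM with a median of 142. Within the active zone, Bsn (Bassoon) was highest, at 47.1 to 61.1 FPKM with a median of 54.3, and Erc2 (an ELKS protein) lowest, at 13.4 to 16.5 FPKM with a median of 15.3. The means of the 6 active zone genes ran from 15.1 to 54.6 FPKM, and those of the 4 SNARE genes from 27.1 to 508 FPKM.

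In SNARE disassembly, Nsf ranged from 100.2 to 116 FPKM with a median of 109 and Napa, encoding alpha-SNAP, from 56.4 to 70.4 FPKM with a median of 65.7. In endocytosis, Dnm1, encoding the neuronal dynamin that severs the vesicle neck, ranged from 256 to 308 FPKM with a median of 280, and Amph, encoding amphiphysin, from 30.2 to 34.3 FPKM with a median of 32.7. These ranges are narrow, and the spread between mice of the same genotype and sex shows how narrow. That residual SD was 0.029 on the log2 CPM scale for Syp, and 0.203% of all genes tested had a smaller one. It was largest for Doc2b at 0.174, for Sv2c at 0.137 and for Syt2 at 0.116, beside a median of 0.116 over all genes tested. The genes compared differ in level: mean log2 CPM was 10.4 for Syp and 3.10 for Doc2b, beside a median of 3.61 over all genes tested. Spread was not compared among genes of like level.

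The Q140 allele did not change any member past the threshold when its effect was averaged over the 3 Ccdc82 genotypes (23 mice with Q140 against 24 without). In edgeR's quasi-likelihood test, 0 of 34 members were called at an adjusted p under 0.05, beside 0.876% of all genes, that is 168 genes, of which 65 rose and 103 fell. DESeq2 called 1 member, Vamp1, at an adjusted p of 0.0235, and 239 of 19174 genes in all. Over the other alternatives the adjusted p of Vamp1 was 0.0555 to 0.12. At an unadjusted p under 0.05 in edgeR there were 8 of 34 members, or 23.5%, and 1760 of 19174 genes, or 9.18%. The median SE was 0.016 over the members and 0.034 over all genes, so these shares do not compare genes measured with like precision. The median difference of the members was -0.02 on the log2 scale, against 0.0009 over all genes, and 26 members lay below 0, which is 76.5% of them beside 49% of all genes. The lowest end of the 34 95% intervals was -0.153, for Vamp1, and the highest 0.066, for Doc2b, on the log2 scale.

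**Figure D2:**
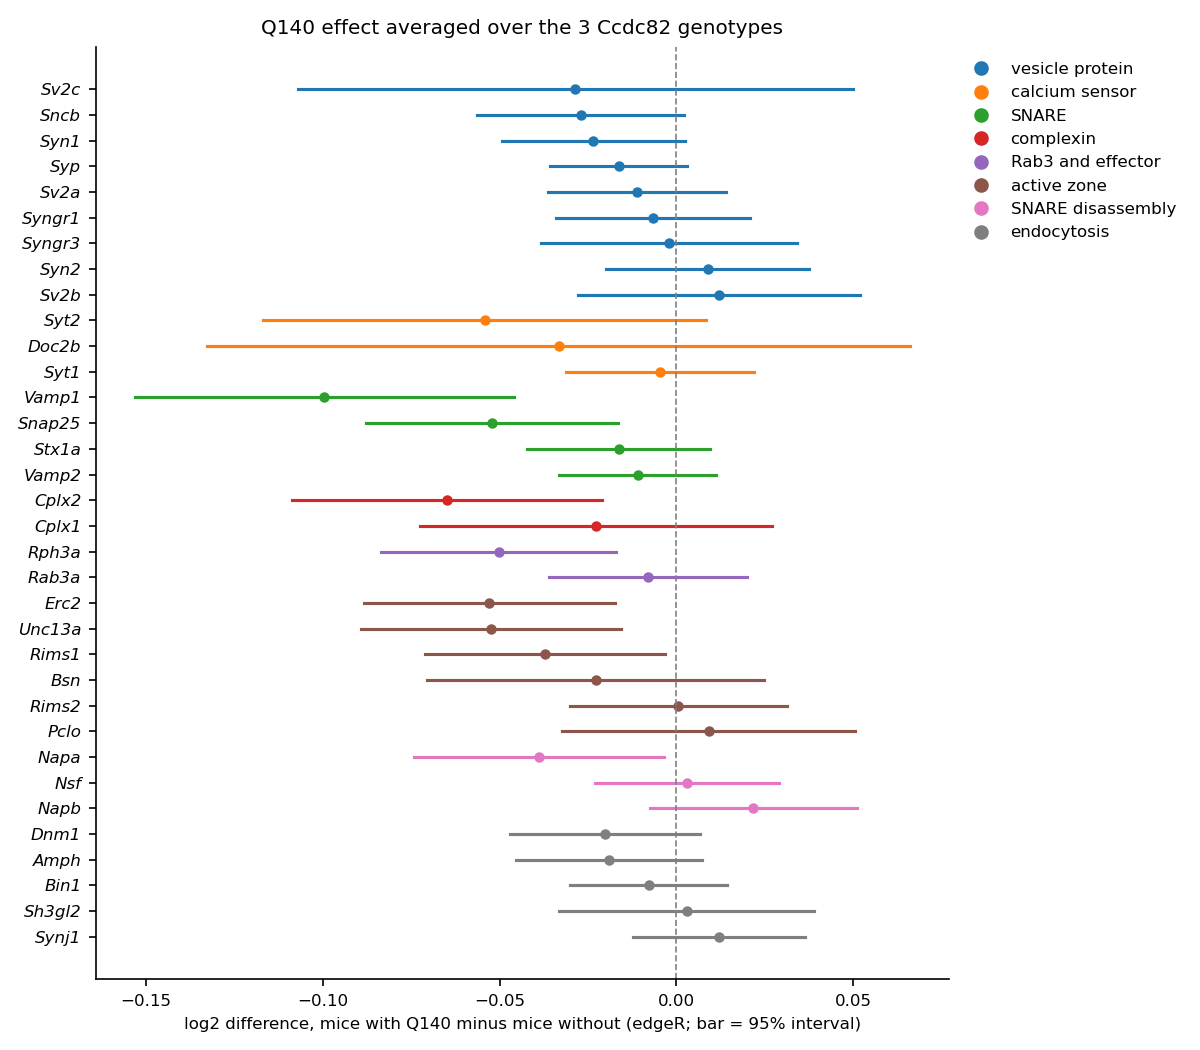
Log2 difference of mice with Q140 minus mice without, averaged over the Ccdc82 genotypes, for the 34 genes grouped by role, with 95% intervals from edgeR. Vamp1 lies lowest at -0.10, 26 points lie left of 0, and 8 intervals exclude 0 before adjustment over genes.

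All 4 SNARE genes had differences below 0, and Vamp1 had the lowest of all members. Vamp1 stood at 239 to 285 CPM with a median of 266 in the 23 mice with Q140, against 224 to 321 CPM with a median of 285 in the 24 mice without. The ranges overlapped, and 21 of 23 mice with Q140 lay below the mean of the mice of their sex and Ccdc82 genotype without it; since Vamp1 is described for its small p, that count adds no support. The averaged difference was -0.10 on the log2 scale (SE 0.027, adjusted p = 0.0548 in edgeR).

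By genotype, Vamp1 averaged 264 ± 9.77 CPM in Q140 x Ccdc82-/- mice and 292 ± 14.8 CPM in Ccdc82-/- mice. It averaged 261 ± 13.6 CPM in Q140 x Ccdc82+/- mice and 281 ± 20.8 CPM in Ccdc82+/- mice, and 271 ± 10.2 CPM in Q140 mice against 281 ± 28.7 CPM in WT mice. The differences were -0.14, -0.11 and -0.05 on the log2 scale in that order (SE 0.047, 0.046 and 0.045), with adjusted p-values of 0.818, 0.929 and 0.894. A single WT male at 224 CPM was the lowest of all mice and set the wide spread of the WT group. The interaction of Q140 with Ccdc82-/- was -0.09 (SE 0.065, adjusted p = 1) and with Ccdc82+/- was -0.06 (SE 0.064, adjusted p = 1), so neither passed the test.

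Snap25, the most abundant member, stood at 3030 to 3643 CPM with a median of 3354 in mice with Q140 and at 3171 to 3755 CPM with a median of 3546 in mice without. The groups overlapped over most of their range, and the averaged difference was -0.05 (SE 0.018, adjusted p = 0.207). The other 2 SNARE genes differed by -0.02 for Stx1a (syntaxin 1A; SE 0.013, adjusted p = 0.775) and by -0.01 for Vamp2 (SE 0.011, adjusted p = 0.853).

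**Figure D3:**
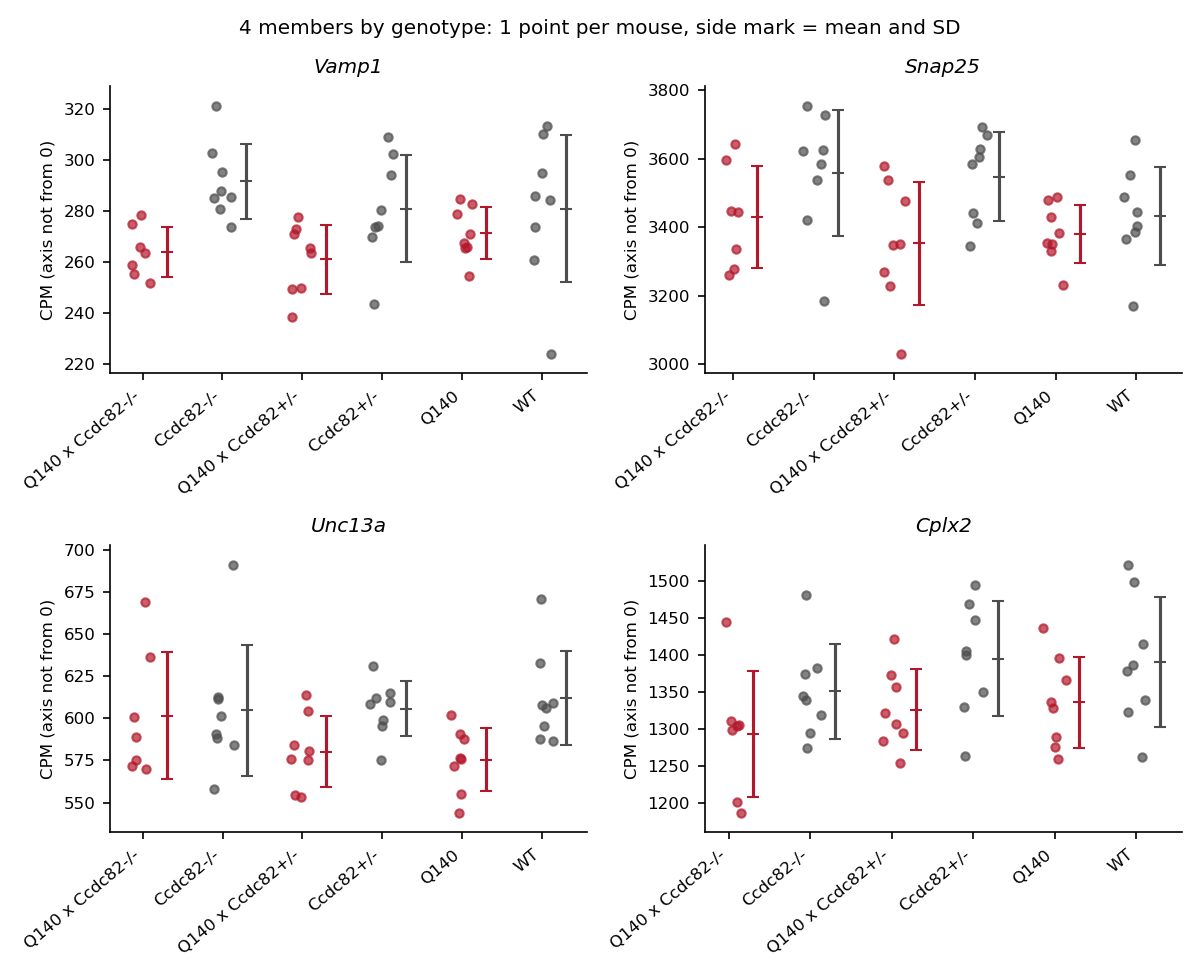
CPM of Vamp1, Snap25, Unc13a and Cplx2 in each mouse by genotype, red with Q140 and grey without, with the mean and SD beside the points and axes that do not start at 0. Points with and without Q140 overlap in every pair of neighbouring groups, and for Vamp1 on Ccdc82-/- they span 252 to 278 CPM with Q140 and 274 to 321 CPM without.

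Of the complexin genes, Cplx2 stood at 1187 to 1444 CPM with a median of 1307 with Q140, against 1262 to 1522 CPM with a median of 1377 without. The difference was -0.06 (SE 0.022, adjusted p = 0.202), and for Cplx1 it was -0.02 (SE 0.025, adjusted p = 0.866). Rph3a, the Rab3 effector, stood at 601 to 715 CPM with a median of 651 with Q140 and at 612 to 723 CPM with a median of 680 without. Its difference was -0.05 (SE 0.017, adjusted p = 0.178).

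Among the 6 active zone genes, 4 lay below 0 and 3 had an unadjusted p under 0.05. Erc2 stood at 128 to 155 CPM with a median of 145 in mice with Q140 and at 137 to 161 CPM with a median of 150.3 in mice without (difference -0.05, SE 0.018, adjusted p = 0.198). Unc13a, encoding the priming protein Munc13-1, stood at 544 to 669 CPM with a median of 577 with Q140 and at 558 to 691 CPM with a median of 607 without (difference -0.05, SE 0.018, adjusted p = 0.234). Rims1, encoding the scaffold protein RIM1, stood at 308 to 369 CPM with a median of 349 with Q140 and at 310 to 390 CPM with a median of 359 without (difference -0.04, SE 0.017, adjusted p = 0.469). In each of the 3 genes the ranges overlapped over most of their length. Bsn (-0.02), Rims2 (0.0005) and Pclo (0.009) completed the group.

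Outside these groups, Napa was the remaining member with an unadjusted p under 0.05, at 215 to 261 CPM with a median of 243 in mice with Q140 and at 229 to 266 CPM with a median of 253 in mice without (difference -0.04, SE 0.018, adjusted p = 0.465). The 3 calcium sensors lay below 0, Syt2 at -0.05 (SE 0.031, adjusted p = 0.645), Doc2b at -0.03 (SE 0.049, adjusted p = 0.912) and Syt1 at -0.004 (SE 0.013, adjusted p = 0.963). The relatives of Napa in SNARE disassembly lay above 0, Napb (beta-SNAP) at 0.02 and Nsf at 0.003. The 9 vesicle proteins ranged from -0.03 for Sv2c to 0.01 for Sv2b, with 0 at an unadjusted p under 0.05. The 5 endocytic genes ranged from -0.02 for Dnm1 to 0.01 for Synj1 (synaptojanin 1), also with 0.

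Of 67 related release genes listed beside the members, 66 passed the filter, 0 rose and 1 fell with Q140. That gene was Ppfia4, which encodes a liprin of the active zone, with a difference of -0.08 (SE 0.020, adjusted p = 0.0459). The median of the related genes was 0.001, with 32 of 66 below 0, and 8 had an unadjusted p under 0.05, or 12.1%. Over all genes 0.876% were called and 9.18% had an unadjusted p under 0.05.

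Markers of other cell types were set beside these values. The 9 parvalbumin interneuron markers were all detected, none stood at 0, and their summed level was 1250 to 1396 CPM in mice with Q140 against 1271 to 1400 CPM in mice without; their part in the Vamp1 difference was not tested. Of the 9, 6 lay below 0 and 3 above, with a median difference of -0.007 on the log2 scale. In edgeR Kcnc1, a fast potassium channel gene, was the 1 marker of the 9 that was called, and it fell (-0.06, SE 0.014, adjusted p = 0.0407). Pvalb differed by -0.03 (SE 0.035, adjusted p = 0.9). Of 10 astrocyte markers, Slc1a2 fell (-0.08, SE 0.017, adjusted p = 0.0123). edgeR called 0 of the 8 other interneuron, 10 excitatory neuron, 10 oligodendrocyte, 10 microglia, 10 endothelial, 8 thalamus and 8 hippocampus markers, with 2, 0, 3, 3, 1, 0 and 2 of them at an unadjusted p under 0.05. In tissue as a whole, fewer cells of a type and less RNA per cell cannot be told apart.

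Each Ccdc82 genotype taken alone gave 0 members called for Q140. In Q140 against WT, where 0.0313% of all genes were called, 0 of 34 members were called by edgeR and 0 by DESeq2, and 1 had an unadjusted p under 0.05. That member was Unc13a, at 544 to 602 CPM with a median of 576 in Q140 mice and at 586 to 671 CPM with a median of 607 in WT mice. The groups overlapped narrowly, and the difference was -0.09 (SE 0.031, adjusted p = 0.498). On Ccdc82+/-, where 0.0313% of all genes were called, edgeR and DESeq2 each called 0 members, 7 had an unadjusted p under 0.05 and 30 of 34 lay below 0. On Ccdc82-/-, where 0.0209% of all genes were called, both called 0, 1 had an unadjusted p under 0.05 and 28 lay below 0, against 19 for Q140 against WT. These 3 contrasts make up the averaged effect and are not separate evidence for it.

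Loss of Ccdc82 without Q140 left every member short of the threshold. In Ccdc82-/- against WT, where 0.00522% of all genes were called, edgeR and DESeq2 called 0 members and 0 had an unadjusted p under 0.05. In Ccdc82+/- against WT, where again 0.00522% of all genes were called, both called 0 members and 3 had an unadjusted p under 0.05. The members' median was 0.02 in both contrasts, with 25 and 29 of 34 above 0, beside medians of -0.0009 and 0.0004 over all genes. Both contrasts use the same 8 WT mice.

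Pclo, which encodes the giant active zone scaffold Piccolo, had the smallest unadjusted p of the members in both. It stood at 449 to 542 CPM with a median of 483 in Ccdc82-/- mice and at 458 to 533 CPM with a median of 490 in Ccdc82+/- mice, against 437 to 502 CPM with a median of 464 in WT mice. The ranges overlapped, and the differences from WT were 0.06 (SE 0.035, adjusted p = 0.999) and 0.08 (SE 0.035, adjusted p = 0.993). Pclo lies on chromosome 5, 19.9 Mb from Htt, and Bsn lies on chromosome 9, 94.8 Mb from Ccdc82; no other member was nearer to either gene.

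In mice with Q140, no member passed the threshold between Ccdc82 genotypes. In Q140 x Ccdc82-/- against Q140, where 0.00522% of all genes were called, edgeR and DESeq2 called 0 of 34 members and 3 had an unadjusted p under 0.05: Pclo (0.09, SE 0.036), Rims2 (0.06, SE 0.027) and Unc13a (0.07, SE 0.032), each at an adjusted p of 0.997. In Q140 x Ccdc82+/- against Q140, where 0.00522% of all genes were called, both called 0 and 0 had an unadjusted p under 0.05. For the interactions of Q140 with Ccdc82+/- and with Ccdc82-/-, 0% of all genes and 0 of 34 members were called by either tool, and 0 members had an unadjusted p under 0.05. The interaction medians over the members were -0.04 and -0.02, with 28 and 24 of 34 below 0, and both hold the same WT and Q140 mice. Interaction standard errors had a median of 0.038 and 0.039 over the members.

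Between the sexes, 2 of 34 members were called in edgeR, both higher in females, beside 10.5% of all genes. At an unadjusted p under 0.05 in edgeR there were 8 of 34 members, or 23.5%, beside 26% of all genes. The share called rests on 2 members, so these shares do not set the members apart from all genes. All mice with the same number in the library names were of a single sex, so sex is nested in this number. The fit took these mice as independent, while the consensus correlation within a number was 0.142. With the number as a random block in limma, 851 genes were called between the sexes in place of 2018, and of the members Rims1 alone. Rims1 (ENSMUSG00000041670, chromosome 1, 22286251 to 22805994, GRCm38) stood at 326 to 390 CPM with a median of 367 in 23 females, against 308 to 368 CPM with a median of 345 in 24 males. The ranges overlapped, with the female median near the highest male. The log2 difference was 0.07 for Rims1 (SE 0.017, adjusted p = 0.00324).

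Syp (ENSMUSG00000031144, chromosome X, 7638471 to 7653256, GRCm38) stood at 1280 to 1398 CPM with a median of 1354 in females, against 1266 to 1393 CPM with a median of 1323 in males. Females and males covered nearly the same range. The difference was 0.03 (SE 0.0097, adjusted p = 0.0392). The Syp call was lost without a filter on low counts (adjusted p = 0.0948), with a random block for the number in the library names (0.0951), on the FPKM scale (0.158) and without Q140 female 1 (0.0528). Exons on the opposite strand, of Gm14703, cover 16.79% of the exon bases of Syp, and whether reads were counted by strand is not known from the labels. Rims1 shares no exon bases with another gene, and its adjusted p was 0.00154 to 0.013 over the alternatives.

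**Figure D4:**
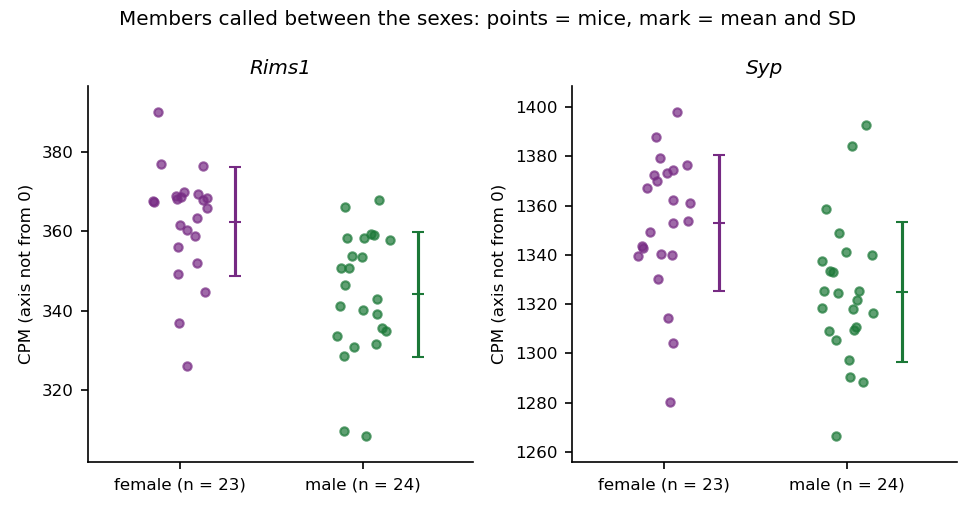
CPM of Rims1 and Syp in 23 females and 24 males, with a point per mouse, the mean and SD beside the points and axes that do not start at 0. Rims1 medians are 367 CPM in females and 345 CPM in males, and Syp medians are 1354 and 1323 CPM, with overlapping points in both genes.

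Of the 66 related release genes tested, 8 rose in females and 0 fell. They include Rims4 (0.11, SE 0.031, adjusted p = 0.0133), a short RIM protein gene, and Rab27b, encoding a secretory Rab GTPase (0.08, SE 0.024, adjusted p = 0.0193). Of the 9 genes listed as parvalbumin interneuron markers, 2 fell in females, Gad1 (-0.06, SE 0.015, adjusted p = 0.00563) and Gad2 (-0.05, SE 0.013, adjusted p = 0.00802). Pvalb itself differed by 0.005 (SE 0.035, adjusted p = 0.954), and of the 9 genes 4 lay above 0 and 5 below. The summed level of the 9 was 1250 to 1364 CPM in females against 1271 to 1400 CPM in males. Among the other lists, 1 rose and 1 fell of the other interneuron markers, 1 rose of the oligodendrocyte, 3 of the endothelial and 1 of the hippocampus markers, 2 fell of the striatal markers, and 0 were called of the excitatory neuron, astrocyte, microglia and thalamus markers (1, 2, 3 and 1 at an unadjusted p under 0.05). The part of these markers in the Rims1 and Syp differences was not tested.

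Mice of the same genotype and sex also differed among themselves, and 6 pairs of measures were compared over the 47 mice on these residuals, with 100000 permutations within genotype and sex (two-sided) and adjustment over the 6 pairs. Syt2 and Vamp1 varied with Pvalb, the defining gene of parvalbumin interneurons. For Syt2 and Pvalb, Pearson's r was 0.865 (permutation p = 1e-05, adjusted 2e-05) and Spearman's rho 0.821 (p = 1e-05, adjusted 2e-05). For Vamp1 and Pvalb, r was 0.828 and rho 0.774, and for Syt2 and Vamp1, r was 0.915 and rho 0.886, with the same p and adjusted p by permutation for both measures. A p of 1e-05 is the smallest that these permutations can give. Without the 2 mice farthest from the median of the first gene, r was 0.818, 0.736 and 0.865 in the same order, and with plate column removed it was 0.869, 0.840 and 0.915.

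**Figure D5:**
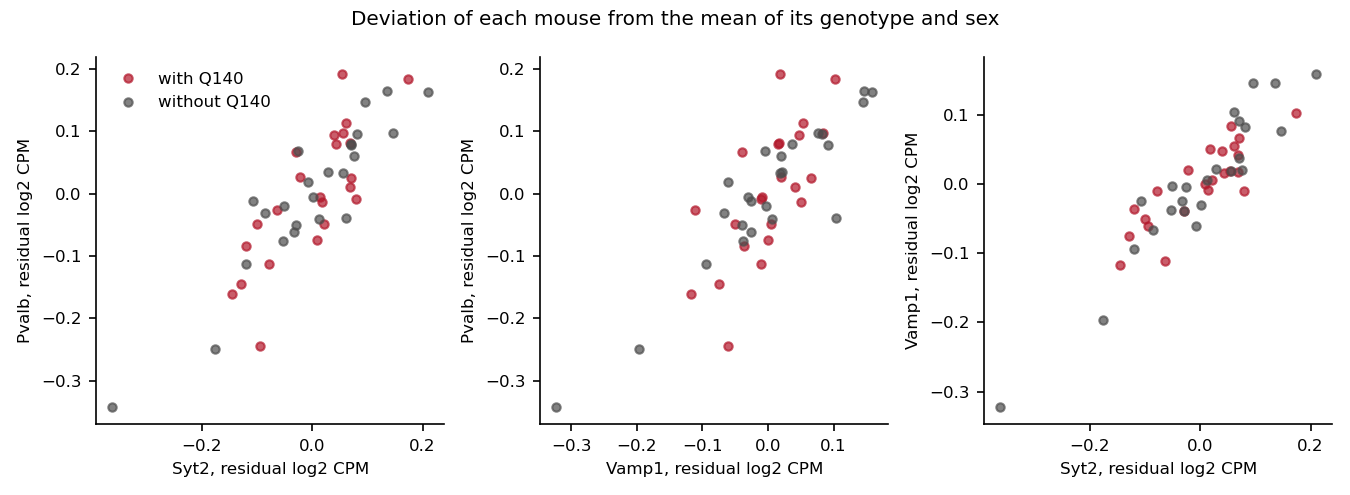
Deviation of each of 47 mice from the mean of its genotype and sex in log2 CPM, for Syt2 and Pvalb, Vamp1 and Pvalb, and Syt2 and Vamp1, red with Q140 and grey without. The points run along a rising line, with r of 0.865, 0.828 and 0.915, and a mouse without Q140 lies far below the rest in each panel.

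For 3 further pairs the relations were looser. Syn1 and Syp had r of 0.613 (permutation p = 0.00013, adjusted 0.000195) and rho of 0.632 (p = 0.0001, adjusted 0.00015), and r was 0.623 without the 2 outer mice and 0.613 with plate column removed. Bsn and Pclo had r of 0.521 (permutation p = 0.00149, adjusted 0.00179) and rho of 0.444 (p = 0.00761, adjusted 0.00913), with r of 0.469 without the 2 outer mice and 0.532 with plate column removed. Sv2c and the mean of the 10 striatal markers had r of -0.396 (permutation p = 0.0322, adjusted 0.0322) and rho of -0.321 (p = 0.0631, adjusted 0.0631). Without the 2 outer mice r was -0.248 (adjusted p = 0.132 by permutation), and with plate column removed it was -0.375. Leaving out the mice with the most extreme Sv2c narrows its range, so the weaker r cannot tell whether the relation rests on them. All 6 pairs share the depth and normalization of their libraries.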

How the data were processed

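Cortex RNA of 47 mice was analysed from 2 deposited tables. The authors deposited whole-number read counts per gene, not normalized, and FPKM values, which correct for the length of a gene and the size of a library, per the file headers. STAR 2.7.5c, SAMtools 1.10, HTSeq 0.12.3, GRCm38 and mm10 are listed in the submitters' processing notes, with no role or order, and strand use in counting is not stated there. Each library was taken as a separate mouse, as the numbered titles give them; litters are not named.

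Low genes were removed with filterByExpr (counts of at least 10, totals of at least 15). Counts were fitted in edgeR 4.0.16 (R 4.3.3; TMM, robust quasi-likelihood F test) on all 47 libraries together, with terms for the 6 genotypes and for sex, and p-values were adjusted by Benjamini-Hochberg over 19174 genes, with calls at an adjusted p under 0.05. CPM values are TMM-normalised. Each SE was derived from the difference and its F value. The script was tested on simulated data. Alternatives were RLE size factors, no filter, DESeq2 1.42.0, plate column, the replicate number as a block, a random block for the number in the library names (limma 3.58.1), no sex term and limma on log2(FPKM + 0.1) for genes with a mean FPKM of at least 0.1. Leaving out Q140 female 1 was chosen after seeing the data. Residuals are of log2 CPM with a prior count of 2.

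The members, the related genes and the marker lists were chosen with earlier results of these data known. Values in full are given for members called in any contrast, the 8 with the smallest p for Q140, the highest and lowest by FPKM in each role and the 3 with the largest residual SD; Pclo was added after its values were seen. Promoters are from RefSeq on GRCm38.p6 and gene positions from GENCODE M21 on GRCm38. Some results of the marker and related gene lists are not reported here.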

Additional observations from a re-analysis of the deposited data

Results flagged for a closer look

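In 18 of 204 combinations of a member and a genotype group, the highest or the lowest mouse stood apart from the rest of its group by Dixon's criterion. Chance flags about 1 in 20 groups, and the 34 genes of a mouse share a library, so several flags can come from the same mouse.

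Q140 female 1 was the lowest of its group in 4 members: Bsn at 743 CPM (group median 859), Nsf at 851 CPM (median 924), Dnm1 at 1333 CPM (median 1478) and Amph at 182 CPM (median 196). The results without this mouse are given with the other alternatives. A male of Q140 x Ccdc82+/-, male 4, was lowest in Syn1 at 659 CPM (median 740) and in Napb at 499 CPM (median 535).

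Of the other lowest mice, Napa was at 215 CPM in Q140 x Ccdc82-/- female 1 (median 242), Syngr3 at 112 CPM in Ccdc82-/- male 3 (median 126) and Doc2b at 6.67 CPM in Ccdc82+/- male 4 (median 8.26). In WT, Vamp2 was at 943 CPM in female 2 (median 1016) and Rims1 at 310 CPM in male 1 (median 356).

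The highest mice that stood apart were Stx1a at 342 CPM in Q140 x Ccdc82-/- female 3 (median 322), Bin1 at 236 CPM in Q140 x Ccdc82+/- female 3 (median 224) and Sv2a at 541 CPM in Q140 male 3 (median 504). Among mice without Q140 they were Unc13a at 691 CPM in Ccdc82-/- male 4 (median 596), Sh3gl2 at 377 CPM in Ccdc82-/- female 1 (median 344), Bsn at 939 CPM in Ccdc82+/- female 2 (median 877) and Dnm1 at 1599 CPM in Ccdc82+/- male 1 (median 1481).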

How the results depend on the processing

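The count of members called stayed at 0 of 34 in all 10 genotype contrasts under every alternative run, except that DESeq2 called 1, Vamp1, for Q140 averaged over Ccdc82 genotypes. In that contrast DESeq2 called 239 genes in all, against 168. The number of members below 0 for averaged Q140 was 23 to 27 over the alternatives, against 26. Between the sexes, 1 member was called in place of 2 without a filter on low counts, with a random block for the number in the library names, and without Q140 female 1; Rims1 was that member each time, and for the lost Syp call the cause was not tested. Syp was also lost on the FPKM scale, where Rims1 and Sncb were called, and with plate column 3 members were called. The correlation of Sv2c with the striatal markers was -0.248 without the 2 outer mice. With the replicate block, 0 members were called in each genotype contrast and 154 genes in all for averaged Q140, against 168. Residuals of mice with the same sex and number but different genotype had a mean correlation of -0.019, with 6 of 115 over 0.1. For mice of different genotype and another sex or number the mean was 0.003, with 76 of 805 over 0.1. By this measure the numbers did not mark mice that were more alike, which cannot exclude a pairing. Counts over all genes moved by more than 1.5 times in Q140 against WT (24 in DESeq2, against 6), on Ccdc82+/- (2 with plate column, against 6), on Ccdc82-/- (2 with the replicate block, against 4) and between the sexes (851 with the library-name block, against 2018). The member with the fewest reads, and so the largest counting error, was Doc2b at 8.62 CPM on average.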
